A study of Homo sapiens with 20 samples.

Results

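The mRNAs of 10 human tetraspanins were followed in extracellular vesicles and in cells of 10 colorectal cancer lines. The genes were CD9, CD63, CD81, CD82, CD151, TSPAN1, TSPAN3, TSPAN6, TSPAN8 and TSPAN15, picked by symbol with earlier results of these data known. All 10 were found among the 17113 protein-coding genes of the count table. Tetraspanins are small proteins that cross the membrane several times and carry a large extracellular loop, with which they gather integrins, proteases and receptors into membrane domains. CD9, CD63 and CD81 are the protein markers by which extracellular vesicles are most often recognised, and CD63 cycles through the endosomes from which exosomes are budded. What was counted here is mRNA, so none of the values describes the tetraspanin proteins on the vesicles.

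The vesicle group held 10 libraries of RNA from extracellular vesicles and the cell group 10 libraries of total RNA of the parent cells, 1 of each per line. The lines were LoVo, COLO-201, SNU-C1, HT-29, WiDr, HCT 116, LS123 and SW480, labelled colon, and LS1034 and LS513, labelled cecum, all labelled adenocarcinoma and untreated. Both compartments came from cultures in RPMI-1640 or DMEM with fetal bovine serum. Per the labels' protocols, vesicle RNA was taken with an exosome isolation kit and amplified with a SMART-Seq low-input kit before Nextera XT tagmentation, while cell RNA went into a stranded, ribosome-depleted KAPA library. Compartment and kit coincide in all 10 lines and cannot be told apart. The libraries are bulk, so fewer cells of a type and less RNA per cell, or fewer vesicles carrying a transcript and less of it in each, cannot be told apart either.

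Vesicle libraries held 1.75 to 24.4 M counts and cell libraries 24.8 to 37.4 M. Every vesicle library also held reads over genes that were near silent in all cells. The share of counts that this background, modelled by gene length and GC content, would fill was 1.95% to 46.4%, highest in SNU-C1 (46.4%), LS123 (38.5%), WiDr (27.9%) and LoVo (22.4%). Of the 11 colon epithelium markers, 7 to 11 reached 1 CPM (count per M counts) in each cell library, with VIL1, CDX1, LGALS4 and CEACAM5 below it in HCT 116 and LS123, KRT20, CDX1, LGALS4 and CEACAM5 in SW480, CDX1, CDX2 and CEACAM5 in COLO-201, and CDX1 and CDX2 in WiDr. Their summed level was 1766 to 19498 CPM in vesicles and 3593 to 25423 CPM in cells. Apart from LYZ, which held up to 3248 CPM (HT-29 cells), markers of other cell types were low in cells. Summed levels were 19.3 to 886 CPM in vesicles and 0.505 to 3257 CPM in cells for 9 leukocyte genes, LYZ included. They were 11.3 to 230 CPM in vesicles and 0.787 to 10.7 CPM in cells for 8 erythroid and platelet genes, 37.1 to 374 and 1.10 to 20.9 CPM for 9 fibroblast and endothelial genes, and 11.5 to 167 and 0.181 to 1.86 CPM for 6 photoreceptor genes. No gene of these lists had 0 counts in all vesicle libraries. The lines were not equally distant: over 10025 genes the deviations of cell libraries from the gene means correlated at 0.86 between HT-29 and WiDr, at 0.81 between HCT 116 and LS123, and at 0.34 for the next pair, so calls that change without WiDr and LS123 are given beside the result. WiDr is known as a derivative of HT-29, and HT-29 with its derivative is not 2 independent lines. The identity of the library labelled LS123 was not tested, and the values given for LS123 are those of the libraries so labelled.

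The hallmark of the family is a Cys-Cys-Gly triplet in the large extracellular loop, where its cysteines form disulfide bonds. It is shown here because all 10 counted genes carry it. The 30 coding bases around it, from a representative GENCODE release 29 transcript of each gene, are given 5′ to 3′ with the codons of the triplet in capitals.
CD9: tatgcgttgaacTGCTGTGGTttggctggg
CD63: gcagattttaagTGCTGTGGGgctgctaac
CD81: gagacgcttgacTGCTGTGGCtccagcaca
CD82: gctcaggtgaagTGCTGCGGCtgggtcagc
CD151: caggagttccacTGCTGTGGCagcaacaac
TSPAN1: aaagggctcaagTGCTGTGGCttcaccaac
TSPAN3: agacagctgcatTGTTGTGGAattcacaac
TSPAN6: aatacgttgcatTGTTGTGGTgtcaccgat
TSPAN8: gaagagtttaaaTGCTGCGGTttggtcaat
TSPAN15: aaaaagttcaagTGCTGTGGCggggaggac

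The triplet began between residues 145 (CD63) and 156 (CD81) of proteins of 228 (CD9) to 294 residues (TSPAN15), and CD9, CD63, CD81 and TSPAN8 carry it at a second place as well. The mRNAs differ more than the proteins: the 3′ untranslated region of that transcript runs from 79 bases in CD63 to 5431 bases in TSPAN3. CD9, CD63 and TSPAN8 lie on chromosome 12, CD81, CD82 and CD151 on chromosome 11, and TSPAN1, TSPAN3, TSPAN6 and TSPAN15 on chromosomes 1, 15, X and 10. Between 0.406% (CD81) and 9.0% (CD63) of the exonic bases of CD63, CD81, CD82, CD151 and TSPAN3 overlap genes on the opposite strand, and reads there are uncertain because the strand setting of the counting is not given in the sources used here.

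Tetraspanin mRNA was a smaller share of vesicle libraries than of cell libraries in every line. Together the 10 genes took 0.0546% (HCT 116) to 0.276% (WiDr) of all counts in vesicles, with a median of 0.103%, against 0.15% (HCT 116) to 0.618% (LS513) in cells, with a median of 0.396%. In the fit across all genes 9 of the 10 were lower in vesicles and 0 were higher, by edgeR's quasi-likelihood test with Benjamini-Hochberg adjusted p under 0.05, and TSPAN8 did not pass. Among all 15130 genes tested 28.1% were lower and 28.6% higher. Because a gene that is silent in cells cannot fall, the nearer background is the 10064 genes above the filter limit of 0.407 CPM in every cell library, of which 42.1% were lower and 6.92% higher. Of genes that averaged 10 CPM or more in cells, 42.3% were lower. Here 9 of the 10 tetraspanins (not TSPAN8) are above that limit and all 9 were lower. The 10 genes were chosen with earlier results of these data known, so their contrast with these shares is only a description. The median log2 fold change, vesicle over cell, was -1.76 for the 10 tetraspanins, -0.51 for those 10064 genes and 0.01 for all genes tested. With TMM scaling, over 100 pairs of a gene and a line, the vesicle level was below the cell level in 94, above it in 5 and undecided in 1 (TSPAN8 in HCT 116).

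**Figure D1:**
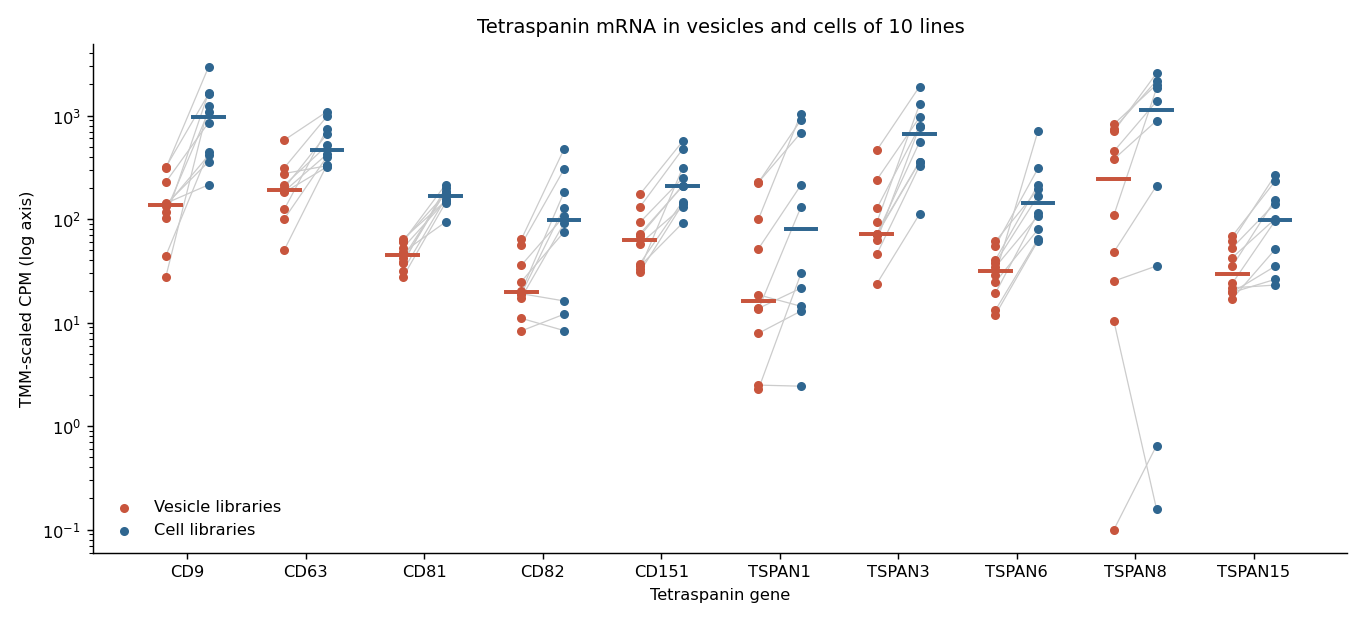
TMM-scaled CPM on a log axis of each tetraspanin in the 10 vesicle libraries (red) and the 10 cell libraries (blue); grey lines join the libraries of 1 line, bars are medians and the 0 counts of TSPAN8 in HCT 116 vesicles are drawn at 0.1 CPM. The vesicle points of CD81 and TSPAN6 all lie below the cell points, while TSPAN1 and TSPAN8 are spread widest.

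CD63, the late-endosomal tetraspanin that sorts cargo into the inner vesicles of endosomes and binds TIMP1, was present in every vesicle library. Its level in vesicles was 50.5 CPM at the lowest (SNU-C1), 193 CPM at the median and 579 CPM at the highest (WiDr), against 319 (HCT 116), 468 and 1091 CPM (WiDr) in cells. Only the WiDr vesicles exceeded the lowest cell library, and every line had less CD63 in its vesicles than in its own cells. The log2 fold change was -1.51 ± 0.28 (SE, n = 10 lines, adjusted p = 0.000349), a level 2.84-fold lower. With the expected background subtracted it was -0.74 (adjusted p = 0.0329). Within lines the log2 ratio ran from -2.72 in SNU-C1 to -0.25 in LoVo. On library totals without TMM scaling 9 of 10 lines were lower, and 8 of 10 were after the background was subtracted.

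CD9, which organises cell adhesion and membrane fusion together with integrins and the EWI proteins, had, with TSPAN3, one of the 2 largest fitted folds. Vesicles held 27.7 (SNU-C1), 136 and 317 CPM (SW480) as lowest, median and highest, against 214 (WiDr), 969 and 2934 CPM (LS1034) in cells. The groups overlapped through 3 vesicle libraries (SW480, LS1034 and LoVo) above the WiDr cells, which had the least CD9 of all cells. The log2 fold change was -2.68 ± 0.44 (SE, n = 10, adjusted p = 0.000142), or 6.40-fold lower. The difference between lines was wide: the log2 ratio was -5.48 in SNU-C1 and -4.02 in LS513, but -0.59 in WiDr. The SNU-C1 vesicle value rests on 89 counts, of which the expected background would make up 45.7%.

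CD81, a widely expressed tetraspanin that serves as a receptor for hepatitis C virus, was the most even member. Vesicles held 27.3 (LS513), 44.7 and 63.8 CPM (SNU-C1), against 93.5 (LoVo), 167 and 215 CPM (HT-29) in cells. With TMM scaling the groups did not overlap. CD81 was lower in all 10 lines, by a log2 fold change of -1.86 ± 0.21 (SE, n = 10, adjusted p = 5.45e-06). The SD of log2 CPM over lines was 0.42 in vesicles and 0.34 in cells, against a median of 0.88 and 0.63 over all genes that averaged 10 CPM or more in cells. The expected background would make up a median of 26.6% of the CD81 counts in vesicles, from 7.75% in COLO-201 to 50.9% in SNU-C1, against medians of 1.68% for CD63 and 3.05% for CD9. After subtraction of this background all 10 lines were still lower.

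CD151 holds the laminin-binding integrins that anchor epithelial cells to their basement membrane. Its level was 30.8 (SNU-C1), 63.1 and 173 CPM (WiDr) in vesicles, against 91.4 (LoVo), 209 and 562 CPM (WiDr) in cells. The vesicles of WiDr, HT-29 and COLO-201 lay above the LoVo cells, but each line was lower in vesicles than in its own cells, with a log2 fold change of -1.80 ± 0.22 (SE, n = 10, adjusted p = 1.26e-05). In 9 lines the log2 ratio lay between -2.17 and -1.18, and LS123 stood apart at -3.23.

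CD82, known as a suppressor of metastasis in prostate cancer, varied more among cells than among vesicles. Vesicles held 8.31 (HCT 116), 19.6 and 63.8 CPM (HT-29), against 8.37 (LoVo), 98.6 and 473 CPM (HT-29) in cells. Vesicles and cells overlapped only through the 3 cell libraries with the least CD82 (LoVo, HCT 116 and LS123). The level of LoVo cells was reached by 9 vesicle libraries, but none reached the SNU-C1 cells (74.9 CPM), the next lowest. CD82 was lower in vesicles in 8 of 10 lines, with a log2 fold change of -1.72 ± 0.38 (SE, n = 10, adjusted p = 0.00142). LoVo and LS123, 2 of the 3 lines with under 20 CPM in cells, had ratios of 0.40 and 0.24 in the other direction. Their vesicle values were 48 and 68 counts, of which the background would make up 84.4% and 60.9%.

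TSPAN8, also called CO-029 and first described as an antigen of gastrointestinal tumours, separated the lines most. Cells of LS513, LS1034, LoVo and SNU-C1 held 2561, 2174, 1990 and 1831 CPM, those of HT-29 and WiDr 1372 and 891 CPM, COLO-201 210 CPM and SW480 35.3 CPM. HCT 116 cells had 18 counts (0.649 CPM) and LS123 cells 4 counts (0.158 CPM). The cells thus ranged from among the most abundant mRNAs to nearly none.

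The vesicles fell in a similar order. TSPAN8 stood at 824 CPM in LoVo, 745 in LS1034, 705 in LS513, 451 in HT-29, 379 in WiDr and 109 CPM in SNU-C1 vesicles, at 48.0 in COLO-201 and 25.2 in SW480, and at 10.4 CPM (37 counts) in LS123. HCT 116 vesicles had 0 counts, which allows up to 3 counts or 0.656 CPM. Vesicle libraries were below their cells in 8 lines, and the direction in HCT 116 is undecided, since that limit is not below its cell level. The log2 fold change of -1.42 ± 0.63 (SE, n = 10) did not pass the threshold (adjusted p = 0.0687). In LS123 the ratio was 5.88: its vesicles held 37 counts where the background alone was expected to give 21.3. Without LS123 the log2 fold change was -1.78 (adjusted p = 0.00128), and without both WiDr and LS123 it was -1.86 (adjusted p = 0.00284), but with the expected background subtracted in all lines it was -0.63 (adjusted p = 0.409).

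TSPAN1, which is raised in several carcinomas, was the other member with a wide range. Cells of LS513, HT-29 and WiDr held 1044, 908 and 683 CPM, LS1034 and SNU-C1 213 and 131 CPM, and the other 5 lines 2.43 (COLO-201) to 29.9 CPM (SW480). In vesicles WiDr and HT-29 led with 226 and 225 CPM, followed by LS513 with 99.2 CPM and LS1034 with 51.6 CPM, and the remaining 6 lines held 2.26 (SW480) to 18.5 CPM (LoVo). The lines with much TSPAN1 in cells therefore had the most in vesicles, except SNU-C1, at 13.4 CPM in vesicles. That SNU-C1 value rests on 43 counts, of which the expected background would make up 59.9%. The gene was lower in 8 of 10 lines, with a log2 fold change of -1.72 ± 0.43 (SE, n = 10, adjusted p = 0.00342). The call was lost with upper-quartile scaling (-0.97, adjusted p = 0.0583) and without the replicate block (-2.21, adjusted p = 0.0890). The ratio was above 0 in LoVo (0.38) and COLO-201 (0.05), where TSPAN1 stood at 14.4 and 2.43 CPM in cells. Their vesicle values were 81 and 35 counts, of which the background would make up 27.8% and 32.6%.

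TSPAN3, a tetraspanin with a role in acute myeloid leukemia, was lower in vesicles in all 10 lines. Vesicles held 23.8 (LS1034), 71.8 and 463 CPM (HT-29), against 112 (LS1034), 668 and 1903 CPM (HT-29) in cells, so the same lines stood at both ends of each group. The ratio was between -3.78 (LS513) and -2.0 (WiDr) in all 10 lines, and the log2 fold change was -2.67 ± 0.26 (SE, n = 10, adjusted p = 2.03e-06), a level 6.36-fold lower.

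TSPAN6, reported to act on syntenin-dependent exosome release and on antiviral signalling, was the other gene whose groups did not overlap with TMM scaling. It held 11.9 (LS513), 31.7 and 60.7 CPM (SW480) in vesicles, against 62.0 (LS513), 142 and 711 CPM (SNU-C1) in cells. The log2 fold change was -2.36 ± 0.27 (SE, n = 10, adjusted p = 7.39e-06). SNU-C1, with the most TSPAN6 in cells, held 29 CPM in vesicles, a ratio of -4.61. With TMM scaling CD81 and TSPAN6 were thus 2 of 10 tetraspanins with every vesicle library below every cell library. This held for 6.54% of the genes that averaged 10 CPM or more in cells and for 4.35% of all genes tested. On library totals the groups of both genes overlapped. CD81 then reached 117 CPM in SNU-C1 vesicles, against 78.8 CPM in LoVo cells. TSPAN6 reached 70.1 CPM in LS1034 vesicles, against 47.9 CPM in LS513 cells.

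TSPAN15, which escorts the protease ADAM10 to the cell surface, had, like TSPAN8, one of the smaller fitted folds. Its level was 17.0 (SW480), 29.6 and 68.7 CPM (HT-29) in vesicles, against 23.0 (HCT 116), 98.1 and 264 CPM (LS513) in cells. The groups overlapped in 6 vesicle libraries. The log2 fold change was -1.37 ± 0.24 (SE, n = 10, adjusted p = 0.000214). The ratio of HCT 116 was -0.08, and without TMM scaling 8 of 10 lines were lower.

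**Figure D2:**
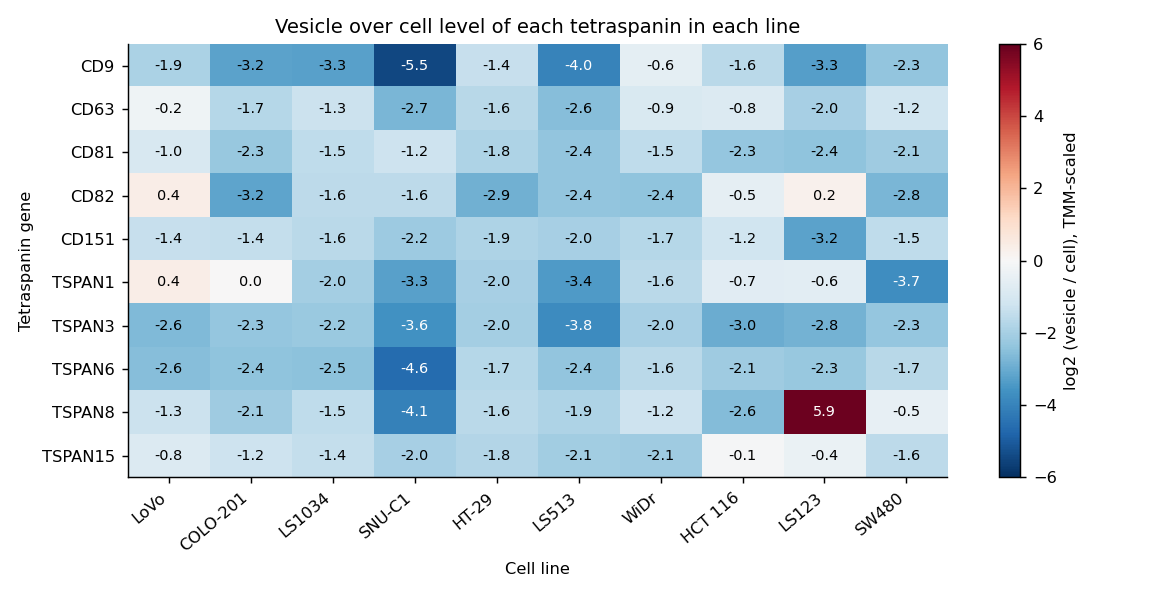
Log2 of vesicle over cell level (TMM-scaled CPM, 0.5 added to each count) for each tetraspanin (rows) in each line (columns), blue for lower and red for higher in vesicles. SNU-C1 holds the lowest values of CD9 (-5.48) and TSPAN6 (-4.61), and LS123 the single large positive value, for TSPAN8 (5.88).

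The directions of the fitted fold changes did not depend on the scaling, but their sizes did. In single lines some directions changed as well. On library totals the log2 ratio was 0.19 for CD9 in WiDr and 0.43 for CD63 in LoVo, against -0.59 and -0.25 with TMM. CD81, CD151, TSPAN3 and TSPAN6 stayed lower in all 10 lines on library totals. The median of all genes moved from 0.01 with TMM to 0.38 with the size factors of DESeq2, 0.47 with library size alone and 0.76 with upper-quartile scaling, and all tetraspanin fold changes moved up with it. CD63, for example, was at -1.14, -1.06 and -0.77 under these 3 scalings, and lower relative to the median of all genes under each. With upper-quartile scaling 8 tetraspanins were lower, against 11.6% of all genes lower and 46.0% higher. In the 5 lines with the least background (SW480, COLO-201, HT-29, HCT 116 and LS513) all 10 were lower, TSPAN8 included at -1.59 (adjusted p = 0.00755), against 19.0% of genes, and after background subtraction 9 were, against 19.3%. Leaving out LoVo moved the median of all genes to 0.35 and the share of genes called lower to 15.8%, and 9 tetraspanins were still lower. Each share of genes in this paragraph is a share of all genes tested. The share among genes above the filter limit in every cell library, the nearer background, is not given for these alternatives.

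**Figure D3:**
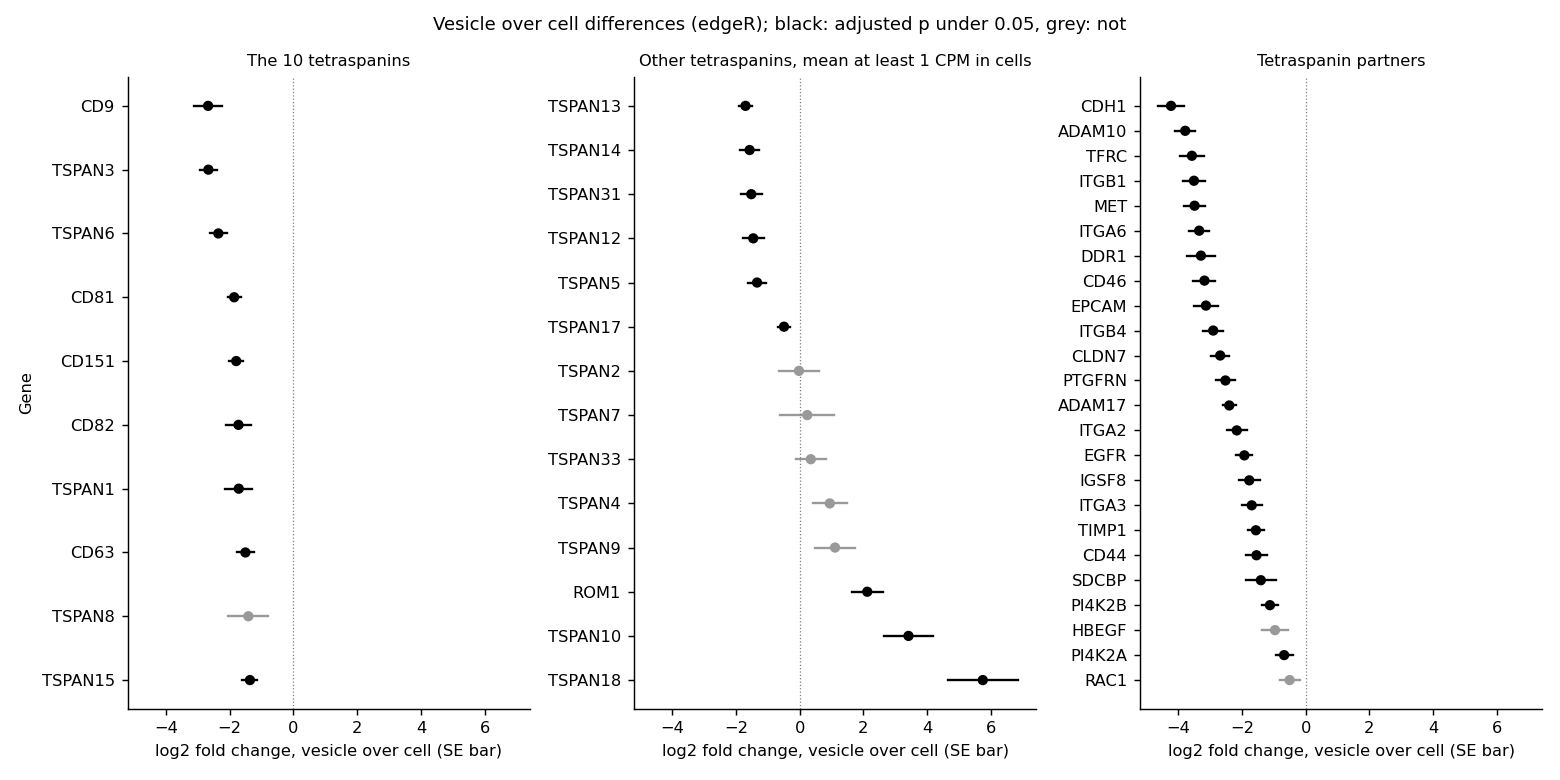
Log2 fold change of vesicle over cell (edgeR, with SE bars, 10 lines) for the 10 tetraspanins, for the 14 other tetraspanins that averaged 1 CPM or more in cells and for 24 partner genes; black marks an adjusted p under 0.05. The 10 tetraspanins run from -2.68 (CD9) to -1.37 (TSPAN15), with TSPAN8 in grey.

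Whether the 10 genes were lowered to the same extent was asked by comparing their ratios within each line, where library scaling cancels. Of the 45 pairs, 2 differed after adjustment over the 45. The ratio of TSPAN3 was below that of CD63 by 1.16 ± 0.63 on the log2 scale and below that of CD81 by 0.82 ± 0.76 (SD, n = 10). Both held in 10 of 10 lines (two-sided exact sign-flip permutation p = 0.00195, the smallest that 10 lines allow, adjusted p = 0.0439). Without adjustment 11 of the 45 pairs passed. After background subtraction 11 pairs passed with adjustment, TSPAN3 being the lower member in 5 of them (against CD63, CD81, CD151, TSPAN8 and TSPAN15). Without WiDr and LS123 no pair passed, but the smallest p that the test allows is larger with fewer lines.

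Levels of different genes were compared per length, as reads per kilobase of exon per M counts (RPKM). Averaged on the log2 scale, the order in vesicles was CD63, TSPAN8, CD9, CD151, TSPAN15, TSPAN3, TSPAN1, TSPAN6, CD81 and CD82. In cells it was CD63, CD9, TSPAN8, TSPAN3, CD151, TSPAN6, TSPAN1, TSPAN15, CD81 and CD82. No neighbours in either order differed beyond their spread over the lines (0 of 18 by exact sign-flip permutation, adjusted over 18, and 1 unadjusted, CD9 above CD151 in vesicles, p = 0.0293, adjusted p = 0.527). By mean RPKM on the linear scale TSPAN8 was the most abundant member in both, with 131 ± 133 RPKM in vesicles and 439 ± 399 RPKM in cells (SD, n = 10), ranking 316 and 59 among all genes. CD63 had 84.4 ± 56.1 RPKM in vesicles and 220 ± 107 RPKM in cells, ranking 487 and 164. CD9 had 37.4 ± 23.8 RPKM in vesicles and 260 ± 200 RPKM in cells and ranked 1110 and 140, and CD81 had 6.26 ± 1.76 and 22.4 ± 4.66 RPKM, ranking 5154 and 2896. These levels depend on the length used: with the representative transcript (1520 bases for CD81, against 7394 for all its exons) CD81 was 5th in both orders, and CD9 stood above CD63 in cells.

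The mixture of tetraspanin mRNAs differed between lines, and its leading member was mostly the same in both compartments. Of the summed RPKM of the 10 genes, TSPAN8 took the most in 5 vesicle and 5 cell libraries (LoVo, LS1034, SNU-C1, HT-29 and LS513), from 31.5% to 62.5% in vesicles and from 27.5% to 61.1% in cells. CD63 led in WiDr, HCT 116 and LS123, with 35.8%, 45.8% and 41.3% in vesicles and 26.9%, 30.8% and 34.6% in cells. CD9 led in SW480, with 35.5% in vesicles and 49.1% in cells.

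COLO-201 was the one line with a different leader, CD63 at 39.6% in vesicles and CD9 at 30.4% in cells. The count of lines with the same leader, 9 of 10, was 8 with the length of the longest transcript and 7 with that of a representative transcript. Averaged over the lines, CD9 made up 12.9% ± 9.48 of the vesicle mixture and 22.1% ± 13.8 of the cell mixture (SD, n = 10). CD63 made up 27.7% ± 12.7 in vesicles and 19.9% ± 10.0 in cells, and TSPAN15 4.94% ± 2.45 and 2.94% ± 1.14. These shares were not tested.

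**Figure D4:**
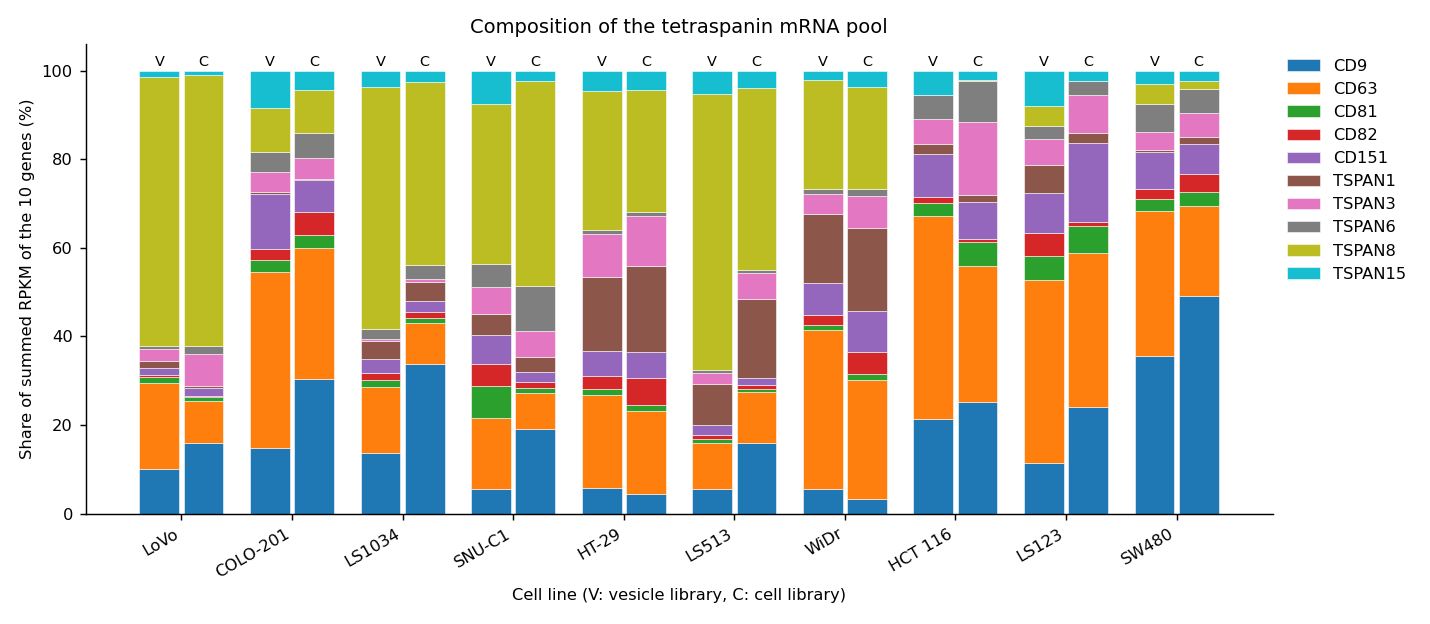
Share (%) of each tetraspanin in the summed RPKM of the 10 genes, with the vesicle bar (V) left of the cell bar (C) for each line. TSPAN8 leads both bars of LoVo, LS1034, SNU-C1, HT-29 and LS513, while HCT 116 and LS123 hold almost none in cells.

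The series asks whether vesicle RNA reports on the cells it came from. For each gene the log2 level in vesicles was therefore set against that in cells across lines, with a permutation test adjusted over 9 genes. TSPAN15 had Pearson's r = 0.88 (adjusted permutation p = 0.00814) and Spearman's rho = 0.84 (adjusted permutation p = 0.0162). Without the 2 lines farthest from the median in cells (HCT 116 and LS123) its r was 0.90. Its r passed with each line left out. Its rho did not pass without HT-29 or without LS513 (rho = 0.80 and adjusted permutation p = 0.0556 in each case). TSPAN3 had r = 0.86 (adjusted permutation p = 0.00814) and rho = 0.88 (adjusted permutation p = 0.0122), and r = 0.63 without HT-29 and LS1034. Without WiDr and LS123 its r was 0.86 (adjusted permutation p = 0.0309) and its rho of 0.81 did not pass (adjusted permutation p = 0.0597). Without HT-29 alone its r passed (0.81, adjusted permutation p = 0.0397) and its rho of 0.83 did not (adjusted permutation p = 0.0556).

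CD151 had r = 0.77 (adjusted permutation p = 0.0295) but a rho of 0.65 that did not pass (adjusted permutation p = 0.109), and r = 0.59 without LoVo and WiDr. The call for CD151 was lost when WiDr (r = 0.64, adjusted permutation p = 0.127), HT-29 (0.71, p = 0.0822), LS513 (0.75, p = 0.0550) or SW480 (0.77, p = 0.0508) was left out. Both measures passed without LS123 (r = 0.93 and rho = 0.90, adjusted permutation p = 0.00288 and 0.0194) and without WiDr and LS123 (r = 0.89 and rho = 0.86, adjusted permutation p = 0.0182 and 0.0431). TSPAN6 had r = 0.63 and rho = 0.73, with adjusted permutation p = 0.0892 and 0.0583, and r was 0.87 without LS513 and SNU-C1. It passed without SNU-C1 alone (r = 0.90, adjusted permutation p = 0.00612) and after background subtraction (r = 0.74, adjusted permutation p = 0.0327). CD63 had r = 0.59 and rho = 0.52 (adjusted permutation p = 0.108 and 0.242), and its r was 0.13 without HT-29 and WiDr, the most alike pair of lines, which had the most CD63 in both compartments. Without LoVo alone its r passed (0.73, adjusted permutation p = 0.0476) and its rho did not (0.73, adjusted permutation p = 0.0838), and r was 0.37 without HT-29 and WiDr as well. For CD9, r was 0.23 and rho 0.09 (adjusted permutation p = 0.636 and 0.912), and r was 0.11 without LS1034 and WiDr. For CD81, r was 0.06 and rho 0.02 (adjusted permutation p = 0.874 and 0.973), and r was 0.01 without HT-29 and LoVo. CD81 ranged only 2.30-fold over the cells, and the background would make up a median of 26.6% of its vesicle counts. With so narrow a range its low r cannot decide whether vesicles follow the cells.

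For 3 genes the cells fell into clusters, split where neighbouring lines lay 4-fold or more apart, so no r of vesicles with cells over all lines is given. Within the 7 lines of the upper CD82 cluster r was 0.77 and rho 0.61 (adjusted permutation p = 0.0892 and 0.251), and r was -0.23 without HT-29 and WiDr. Within the 6 lines with high TSPAN8 r was 0.28 and rho 0.60 (adjusted permutation p = 0.636 and 0.314), and r was 0.64 without HT-29 and WiDr. No TSPAN1 cluster held more than 5 lines, and the relation was not tested there. As a description, the median r was 0.63 over these 9 tetraspanins and 0.44 over 10025 genes that averaged 10 CPM or more in cells, with quartiles of 0.21 and 0.64. These medians are not like for like. The median SD of log2 CPM over cells was 1.19 for the 10 tetraspanins and 0.63 for the 10025 genes, and a wider spread can raise r. The r of CD82 and TSPAN8 also rest on 7 and 6 lines. The points of each r share 10 cell and 10 vesicle libraries of unequal depth.

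**Figure D5:**
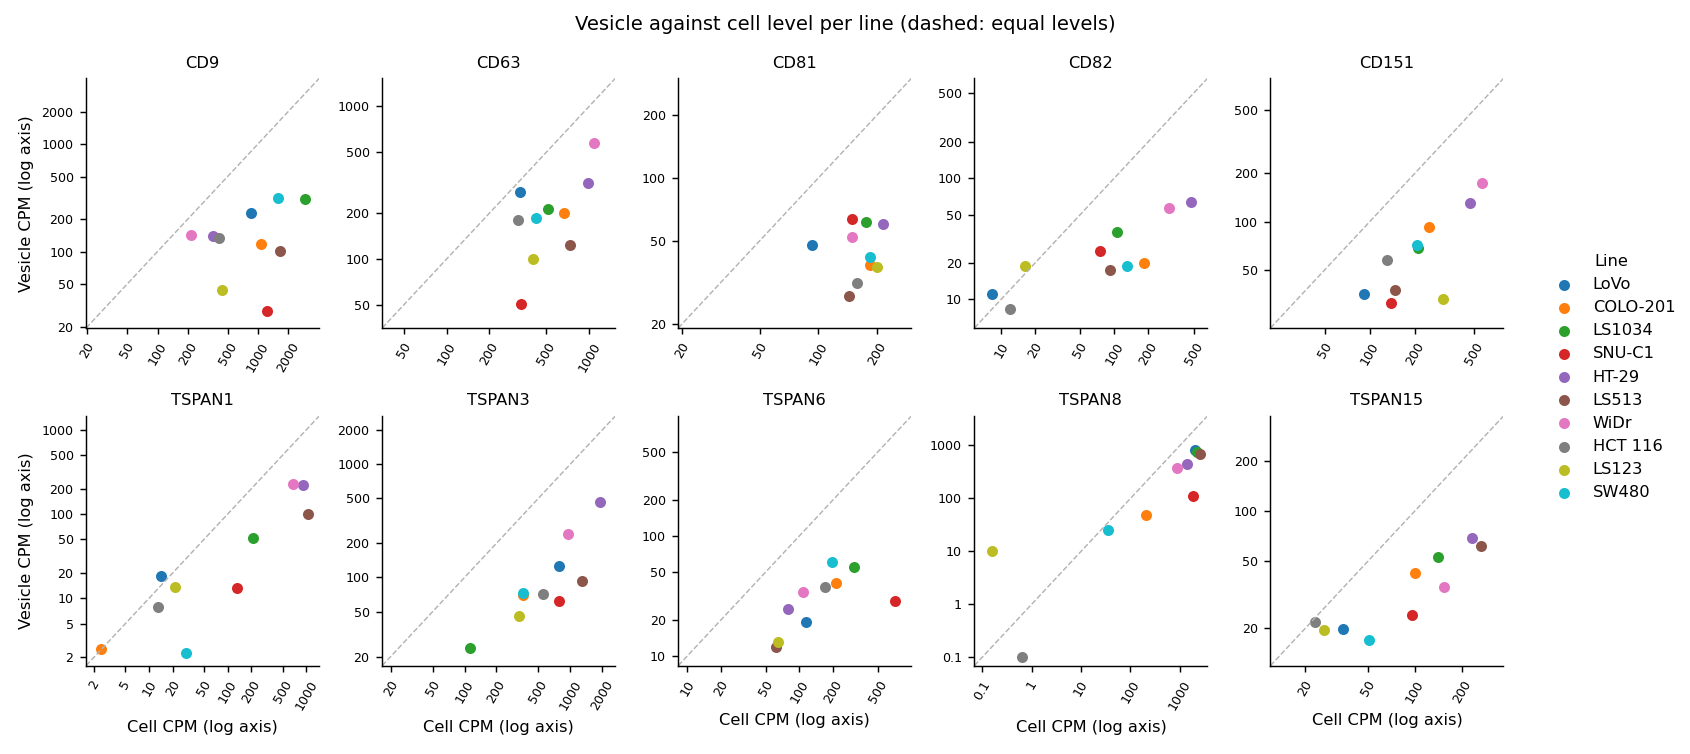
Vesicle CPM against cell CPM (both log axes, TMM-scaled) for each tetraspanin, with 1 point per line and a dashed line of equal levels; the 0 counts of TSPAN8 in HCT 116 vesicles are drawn at 0.1 CPM. TSPAN3 and TSPAN15 rise along the diagonal (r = 0.86 and 0.88), while the points of CD81 form a cloud (r = 0.06).

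The 3 tetraspanins with the widest range over cells were TSPAN8, TSPAN1 and CD82, at 13.8, 8.74 and 5.82 on the log2 scale. Of 12772 genes searched over the 10 cell libraries, those most like TSPAN8 were POF1B (r = 0.99), IRF2BP2 (r = 0.98) and S100P (r = 0.98). S100P, a small calcium-binding protein, ran from 0.158 CPM in LS123 to 1135 CPM in LS513, and POF1B from 0.158 CPM in LS123 to 1362 CPM in SNU-C1. Over the 10 vesicle libraries their r with TSPAN8 was 0.79 for S100P, 0.91 for POF1B and 0.26 for IRF2BP2. The genes most like TSPAN1 were TMC4, ANXA13 and OVGP1 (r = 0.95 each), and those most like CD82 were QPCT (r = 0.96), CKLF (r = 0.95) and HM13 (r = 0.95). These are the 3 genes whose cells fell into clusters, and clusters can raise r, so the values are only descriptions over 10 libraries, among which WiDr resembled HT-29 and LS123 resembled HCT 116, as given above.

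The rest of the family was described from the same fit. Of 23 other tetraspanins in the table, 14 averaged 1 CPM or more in cells, against all 10 described above. Of the 19 tested, 6 were lower and 8 higher in vesicles, beside 28.1% lower and 28.6% higher of all genes tested. The 6 were TSPAN13 (log2 fold change -1.70, adjusted p = 6.45e-06 by edgeR), TSPAN14 (-1.57, adjusted p = 0.000430), TSPAN31 (-1.51, adjusted p = 0.00139), TSPAN12 (-1.45, adjusted p = 0.00158), TSPAN5 (-1.33, adjusted p = 0.000952) and TSPAN17 (-0.49, adjusted p = 0.0426), and 2 of them passed with upper-quartile scaling. TSPAN17 did not pass with background subtracted (-0.07, adjusted p = 0.836) or in the 5 lines of lowest background (-0.39, adjusted p = 0.209). Without WiDr and LS123 the number of other tetraspanins lower was 5. TSPAN5, TSPAN14 and TSPAN17 belong, with TSPAN15, TSPAN10 and TSPAN33, to the subgroup that binds ADAM10.

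TSPAN13 held 6.12 to 104 CPM in vesicles, with a median of 38.1, and 16.1 to 364 CPM in cells, with a median of 97.6. TSPAN14, one of the ADAM10 binders, held 18.2 to 80.0 CPM in vesicles (median 39.0) and 55.4 to 298 CPM in cells (median 112). The log2 fold changes of TSPAN2, TSPAN7, TSPAN33, TSPAN4 and TSPAN9 were -0.02, 0.24, 0.35, 0.95 and 1.11, none past the threshold. All 8 other tetraspanins above the filter limit in every cell library were the 6 lower ones, TSPAN4 and TSPAN9.

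The 8 higher ones stood below that limit in some cell library, so that the filter let them in through their vesicle counts. Among them TSPAN10, TSPAN18 and ROM1 reached a mean of 1 CPM in cells, with log2 fold changes of 3.42, 5.75 and 2.12. ROM1 did not pass with background subtracted (0.66, adjusted p = 0.663), nor TSPAN10 in the 5 lines of lowest background (2.09, adjusted p = 0.0803). Their vesicle counts were 3.02, 1.86 and 1.83 times those expected from the background. CD37 and CD53, tetraspanins of leukocytes, and PRPH2, a tetraspanin of photoreceptors, had vesicle counts of 1.01, 1.66 and 1.36 times the expected background. For the 10 genes described above the summed vesicle counts were 31.1 times it. The background would make up more than 50% of the counts in 10 of their 100 vesicle values, and it exceeded the count in 1, TSPAN8 in HCT 116.

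Most partner genes of tetraspanins were lower as well. Of 24 genes for proteins that bind tetraspanins or travel with them, 22 were lower and 0 higher, with a median log2 fold change of -2.46. All 24 were above the filter limit in every cell library, where 42.1% of genes were lower with a median of -0.51. The list of partners was chosen with earlier results of these data known, so this contrast is only a description. The 6 with the smallest adjusted p by edgeR were ADAM10 (-3.78, adjusted p = 1.12e-06), the sheddase that TSPAN15 carries, ADAM17 (-2.40, adjusted p = 1.20e-06), the laminin-binding integrin subunit ITGA6 (-3.34, adjusted p = 1.45e-06), the cadherin CDH1 (-4.22, adjusted p = 1.82e-06), the growth factor receptor MET (-3.49, adjusted p = 1.97e-06) and the integrin subunit ITGB1 (-3.50, adjusted p = 2.20e-06). ADAM10 had 12.5 to 85.8 CPM in vesicles and 187 to 697 CPM in cells. The 2 not called were HBEGF (-0.96, adjusted p = 0.0552) and RAC1 (-0.50, adjusted p = 0.182). The number of partners lower was 19 to 23 over the alternatives tried, and 21 without WiDr and LS123.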

How the data were processed

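The authors deposited read counts per gene, without normalisation, made with STAR and featureCounts on hg19, per the submitters' processing notes; versions, annotation and strand setting are not given in the sources used here. Vesicle and cell libraries (10 each) held 1.75 to 24.4 M and 24.8 to 37.4 M counts, and a gene at 0 counts could be present at up to 3 counts. Such limits cover counting error only. With 1 library per line and compartment, p-values measure the spread between lines, and replicate cultures of a line were not analysed here.

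Counts of all 17113 genes were fitted with edgeR 4.0.16 (R 4.3.3; robust quasi-likelihood test, TMM scaling, filterByExpr with a minimum count of 10, cell line as a block), with Benjamini-Hochberg adjustment over the 15130 genes tested and a threshold of 0.05. SEs were obtained from the fitted log2 fold change and the root of its F value. The labels pair the libraries through the line they name, and the deviations of a line from the compartment means correlated at 0.05 (SNU-C1) to 0.51 (LS513). Log2 levels of single libraries had 0.5 added to each count. Ratios and levels of gene pairs were compared by two-sided exact sign-flip permutation over 10 lines and correlations by 1e+05 permutations (SciPy 1.17.1), adjusted within each family.

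Background per vesicle library was estimated from 2077 genes with at most 10 counts in each cell library, by a Poisson model on exonic length and GC content (statsmodels 0.14.6). Gene lengths of 17104 of the 17113 symbols were taken from GENCODE release 29. The files' build differs, so no coordinates are given. The edgeR fit was tested on simulated data for this comparison (16889 genes, 200 changed): it recovered 99% of genes changed by 2 on the log2 scale and 42% of those changed by 1. The simulation used the same dispersion for all genes, no differences between lines and no added background. These rates may therefore not hold for the real libraries.

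Alternatives were DESeq2 1.42.0 and its size factors, library size, upper-quartile scaling, no filter, no replicate block, each line left out, WiDr and LS123 left out, 5 lines of lowest background, background subtraction, 5 added to each count, and other gene lengths. The 10 genes and the lists of other tetraspanins, partners and markers were chosen with earlier results of these data known. Named were the 10 genes, the other tetraspanins that averaged 1 CPM or more in cells, the 6 partners of smallest adjusted p, and the 3 genes most like each of the 3 most variable members; CD37, CD53, PRPH2, HBEGF and RAC1 were added after their values were seen.

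1 leukocyte marker of the list is not reported here and was left out of the summed level.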

Additional observations from a re-analysis of the deposited data

Results flagged for a closer look

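In 30 groups of 10 values (the level of each tetraspanin in vesicles and in cells, and its vesicle over cell ratio), 5 had an end value separated from its neighbour by more than 0.466 of the whole range, the 95% critical value of Dixon's test for 10 samples. Chance flags about 1 in 20 groups. The log2 ratio of TSPAN8 was 5.88 in LS123, with the next line at -0.49. It rests on 37 counts in vesicles and 4 in cells. The log2 CPM of TSPAN8 was -3.19 in HCT 116 vesicles (0 counts with 0.5 added), with the next library, LS123, at 3.39. That distance rests on the 0.5 added: with HCT 116 set at the limit of 3 counts (log2 CPM of -0.61) the gap is 0.388 of the range, under the critical value, so the value marks a count of 0 and not a measured distance. The log2 ratio of TSPAN6 was -4.61 in SNU-C1, with the next line at -2.57. It rests on 93 counts in vesicles and 19667 in cells. The log2 ratio of CD151 was -3.23 in LS123, with the next line at -2.17 (118 counts in vesicles and 7848 in cells). The log2 CPM of CD81 was 6.55 in LoVo cells, with the next line at 7.17. SNU-C1 and LS123 vesicles were the 2 shallowest libraries with the highest background shares, and the part of depth and background in these values was not tested.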

How the results depend on the processing

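The number of tetraspanins lower in vesicles was 8 to 10 and the number higher was 0 under all 19 alternatives. It was 9 to 10 with each line left out, and partners lower were 19 to 22. Over all alternatives CD9, CD63, CD81, CD82, CD151, TSPAN3, TSPAN6 and TSPAN15 kept their direction and stayed past the threshold, and TSPAN1 lost it under the 2 alternatives given above. Without the replicate block 8 tetraspanins were lower. TSPAN8 ran from -1.78 to -1.05 with each line left out, passing only without LS123. Other tetraspanins lower numbered 2 with upper-quartile scaling against 6, and 5 to 6 with each line left out. Pairs of tetraspanins that differed numbered 2, against 4 with 5 added to each count, 11 with background subtracted and 0 without WiDr and LS123. They numbered 0 with each line left out. With fewer lines the smallest p that sign flips allow is larger, so more pairs must reach it before any can pass. These counts of 0 therefore cannot show whether the differences rest on single lines. The cause of the other changes was not tested. Neighbours in the order of levels that differed numbered 1 with the longest and 1 with a representative transcript length (this second length was chosen after seeing the data), against 0, and 0 with each line left out. In cells CD63 was then above CD151 (adjusted p = 0.0352). Correlations that passed numbered 2 to 4 with each line left out. The correlations were not tested under other scalings. The TMM factors of the vesicle libraries ran from 0.831 (COLO-201) to 1.84 (SNU-C1), so the values of r may depend on the scaling. Few counts limit TSPAN8 in HCT 116 and LS123, in vesicles and in cells. The shallow SNU-C1 and LS123 vesicle libraries, with 1398 and 1205 counts of the 10 genes, limit all members.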
